A study of Mus musculus with 7 samples.

Results

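The transcription factor p53 and 9 of the genes it is known to switch on were followed as a readout of cell stress. The 10 genes were Trp53 itself, Mdm2, Cdkn1a, Ccng1, Sesn2, Zmat3, Phlda3, Bax, Bbc3 and Pmaip1, chosen by symbol through their Ensembl identifiers among the 38124 genes counted. All 10 were in the count table. The question asked of them was whether cells that carried the Sox9 construct differed from cells that carried the control construct in the response that p53 drives when DNA, ribosomes or the cell cycle are disturbed.

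The libraries were bulk RNA-seq of sorted neocortical cells from mouse embryos at E15.5, 48 hr after in utero electroporation at E13.5. The embryos were heterozygous for Tis21-CreERT2, in which a tamoxifen-activated Cre recombinase replaces exon 1 of 1 allele of Tis21 (Btg2), a gene that is switched on as progenitors turn to neuron production. Mothers in both groups received tamoxifen. Recombination removed a floxed membrane GFP from the electroporated plasmid and let a CAGGS promoter drive nuclear RFP alone (Control, 3 libraries) or Sox9 followed by an IRES and nuclear RFP (Sox9, 4 libraries). The cells sorted as High RFP were sequenced, and the study's methods state that cortices of several embryos were pooled in each experiment. RFP persists in daughter cells, and the sort can therefore hold neurons as well as basal progenitors (BPs). The spread between libraries is therefore the spread between sorted pools, and p-values measure that spread and nothing wider.

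In an unstressed cell p53 protein is made continuously and destroyed just as fast, because Mdm2 tags it for the proteasome. Stress blocks that destruction, and p53 then activates Mdm2 itself, which closes a negative feedback loop, together with brakes on the cell cycle such as Cdkn1a and killers such as Bax, Bbc3 and Pmaip1. The level of Trp53 mRNA therefore says little about p53 activity, whereas the mRNAs of its targets are the usual readout. Developing cortex is sensitive to this pathway, and dividing neural progenitors in which it is activated are known to leave the cycle or die.

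Promoter sequence of the members is shown to place the element that p53 recognises. RefSeq windows of the GRCm38.p6 build, from 250 bases before to 50 bases after each annotated start, matched 8 of the 10 members in 11 windows. The 10-base p53 consensus element, which reads the same on both strands, was searched, and p53 binds best to a pair of such elements. Of the 11 member windows 5 held it, in 5 genes, against 8.36% of all 32851 windows. The stretches below carry 30 bases on either side of the element, which is in capitals, and are printed 5′ to 3′ on the strand of the gene. Cdkn1a lies at chr17:29090876-29090967 on the plus strand, Trp53 at chr11:69580254-69580323 on the plus strand, Mdm2 at chr10:117710905-117710974 on the minus strand, Ccng1 at chr11:40755432-40755501 on the minus strand and Bax at chr7:45467060-45467129 on the minus strand.
Cdkn1a: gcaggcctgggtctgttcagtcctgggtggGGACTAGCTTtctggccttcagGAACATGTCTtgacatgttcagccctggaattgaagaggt
Trp53: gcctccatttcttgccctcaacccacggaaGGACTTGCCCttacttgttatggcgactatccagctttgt
Mdm2: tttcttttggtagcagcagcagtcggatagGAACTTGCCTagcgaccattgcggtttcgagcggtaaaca
Ccng1: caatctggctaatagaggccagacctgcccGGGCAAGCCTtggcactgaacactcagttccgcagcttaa
Bax: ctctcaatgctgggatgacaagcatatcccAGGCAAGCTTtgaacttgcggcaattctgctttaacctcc

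The Cdkn1a stretch held a pair of elements no more than 13 bases apart, which was so in 0.0731% of all windows. They begin 73 and 51 bases before the more distal of the 2 starts with a window. In the other genes the element begins 75 bases before the start in Trp53, 186 in Mdm2, 185 in Ccng1 and 201 in Bax. Sesn2, the member whose level differed most between the groups, had none in its window, and the last 100 bases before its start, at chr4:132510457-132510556 on the minus strand, are given for comparison.
Sesn2: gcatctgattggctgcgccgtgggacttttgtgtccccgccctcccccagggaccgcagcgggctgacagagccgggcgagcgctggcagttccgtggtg

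Bbc3 and Phlda3 likewise had no match in their windows. The core bound by SOX proteins, ACAAT on either strand, was in 31.0% of all windows and in 1 of the 11 member windows, which belonged to Bbc3. A match describes letters only, and the absence of one concerns only the window searched.

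Before the members, the construct and the libraries were checked. Total counts ran from 10465562 to 12907778 in the control libraries and from 4429704 to 10520214 in the Sox9-labelled libraries. Sox9 mRNA was at 34.6, 89.2 and 67.9 CPM, the count of a gene relative to the TMM-scaled total of its library, in the control libraries and at 50.8, 41.1, 31.0 and 37.1 CPM in the Sox9-labelled ones. It was not higher in the second group (log2 fold change −0.68 ± 0.25 SE, adjusted p = 0.0493), and that group is called the Sox9-labelled libraries for this reason. Sox9 was called lower without Control replicate 1 (log2 fold change −0.99, adjusted p = 0.00281) and without a filter (adjusted p = 7.71e-05), and in no other of the 16 alternative settings at the threshold of 0.01. Each gene was given a p by edgeR's quasi-likelihood test, with Benjamini-Hochberg adjustment over the 16522 genes that passed its filter on low counts, and called at an adjusted p under 0.01. Of these genes 11.3% were called higher and 3.43% lower in the Sox9-labelled libraries. The genes behind these shares include 2169 with no control library at the filter's minimum of 0.956 CPM, tested only through the Sox9-labelled libraries. Of those, 937 were called higher and 0 lower, while only 7 genes had no Sox9-labelled library at the minimum. The 1862 higher and 567 lower calls became 363 and 284 with cyclic loess scaling, 1969 and 1272 with DESeq2, 2661 and 1452 without a filter, and 1498 and 104 with the deposited FPKM. These settings change the test, the filter or the input together, and DESeq2 size factors within edgeR gave 1874 and 634.

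The share of genes called differed with the level of the gene. Among genes with an average level under 1 on the log2 CPM scale, 20.6% were called higher and 0.0916% lower. From 1 to 3 on that scale 22.8% were higher and 1.02% lower, from 3 to 6 3.24% higher and 4.59% lower, and at 6 or above 0.6% higher and 8.05% lower. The median log2 fold change ran from 1.55 in the lowest class through 0.62 and −0.14 to −0.26 in the highest. Bbc3 was in the lowest class, Cdkn1a, Pmaip1 and Sesn2 in the next, Mdm2, Ccng1 and Zmat3 in the class from 3 to 6, and Trp53 and Bax in the highest.

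Of the members only Sesn2 passed the test. Of the 9 members tested, 1 was called higher (Sesn2) and none lower by edgeR at an adjusted p under 0.01, and at an unadjusted p under 0.05 the counts were 1 and 1, where 26.8% of all genes were higher and 17.3% lower. The median log2 fold change of the 9 was −0.0043, beside −0.0031 for all genes tested. Groups did not overlap in CPM for Sesn2, with the Sox9-labelled libraries above, and for Trp53, with them below, and of all genes tested 22.9% were separated upwards and 16.4% downwards in this way. The call for Sesn2 was 1 among 3 members in a class where 22.8% of genes were called higher.

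**Figure D1:**
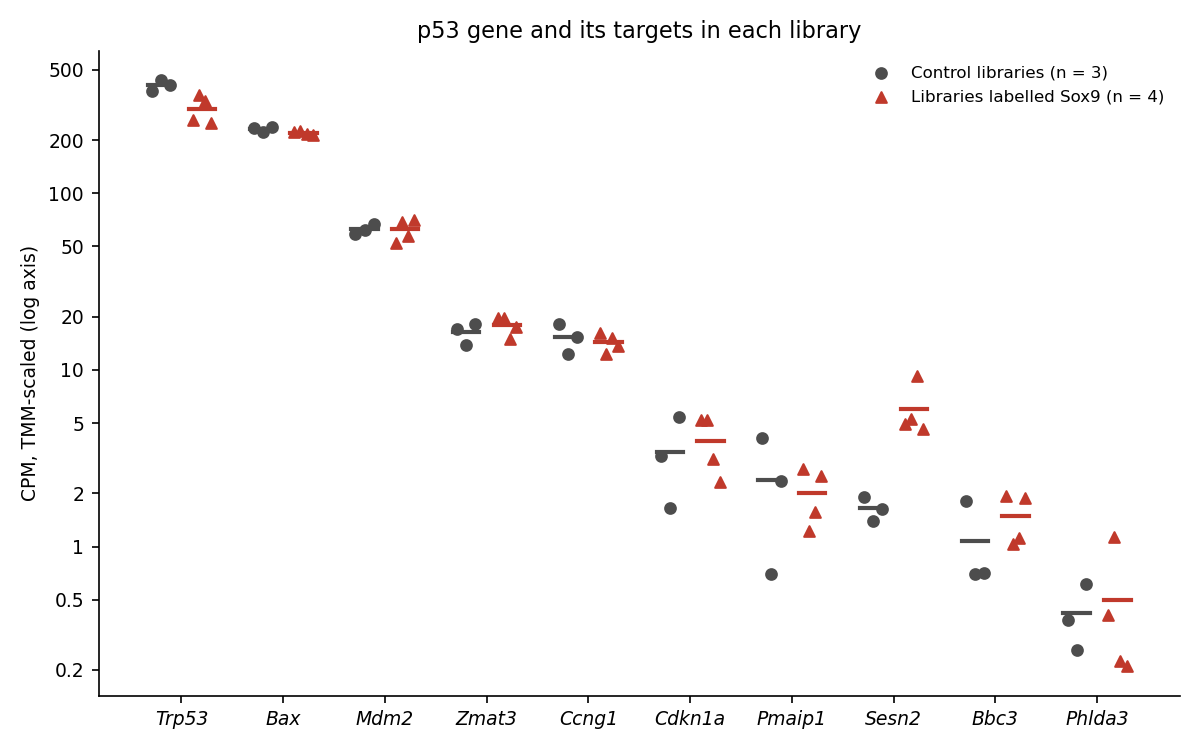
Level of each of the 10 genes in each library, in TMM-scaled CPM on a log axis; circles are the 3 control libraries, triangles the 4 Sox9-labelled libraries, and bars the group means. The 2 groups are apart for Sesn2 (all 4 triangles above all 3 circles) and Trp53 (all 4 below) and overlap for the other 8 genes.

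Trp53, which encodes p53, was the most abundant member in reads. It was at 379, 437 and 412 CPM in the control libraries and at 260, 359, 332 and 248 CPM in the Sox9-labelled libraries. Every library labelled Sox9 lay below every control library, with the replicates numbered 1 and 4 lowest. The log2 fold change was −0.45 ± 0.14 SE, a fold of 0.734 with a 95% interval from 0.601 to 0.896, and the adjusted p of 0.0219 (edgeR) missed the threshold. Genes of its class, at 6 or above on the log2 CPM scale, had a median of −0.26. DESeq2 (adjusted p = 0.00845) and edgeR without a filter (adjusted p = 0.00136) called Trp53 lower. With cyclic loess it was at −0.20 (adjusted p = 0.318) and with the deposited FPKM at −0.23 (adjusted p = 0.260), and in FPKM the groups overlapped. Its processed pseudogene Trp53-ps, which could share reads with it, held 37 counts over all 7 libraries.

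Mdm2, the ubiquitin ligase that degrades p53 and is itself a p53 target, was at 59.0, 62.1 and 66.6 CPM in control and at 52.6, 69.1, 57.2 and 70.9 CPM in the Sox9-labelled libraries. The Sox9-labelled libraries reached both below and above the control range. The fold was 0.997 with a 95% interval from 0.811 to 1.23 (adjusted p = 0.985, edgeR), so a rise of more than 1.23-fold lay outside the interval of this fit. In 8 of 16 alternative settings the log2 fold change was above 0, at 0.21 with cyclic loess and with the deposited FPKM, and it was called in 0. The ratio of Mdm2 to Trp53, both per kilobase of exon, was 0.113 to 0.129 in control and 0.137 to 0.227 in the Sox9-labelled libraries, without overlap. Of the pair only Trp53 was itself apart between the groups. No share of separated ratios over all genes was computed, and of single genes 22.9% were separated upwards. Against Mdm4, the related protein that holds p53 inactive, the ratio of Mdm2 overlapped between the groups, at 3.02 to 4.29 and 3.75 to 5.13.

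The members that restrain the cell cycle were at low levels in these cells. Cdkn1a encodes p21, the inhibitor of cyclin-dependent kinases through which p53 stops cells before DNA replication. It was at 3.25, 1.65 and 5.39 CPM in control, from 34, 19 and 53 counts, and at 5.22, 5.20, 3.13 and 2.31 CPM in the Sox9-labelled libraries, from 38, 55, 28 and 11 counts. The control libraries alone spanned more than the difference between the groups. The log2 fold change of 0.24 ± 0.43 SE had a 95% interval in fold from 0.626 to 2.22 (adjusted p = 0.704, edgeR), and cyclic loess scaling turned it to −0.30. A rise of 2-fold lay inside that interval.

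Ccng1, cyclin G1, which recruits a phosphatase that activates Mdm2, was at 18.3, 12.3 and 15.3 CPM in control and at 16.2, 12.4, 15.1 and 13.6 CPM in the Sox9-labelled libraries. All 4 of these values lay inside the control range. The fold was 0.938 with a 95% interval from 0.690 to 1.27 (adjusted p = 0.763, edgeR).

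Zmat3, an RNA-binding protein and one of the most regular p53 targets, was at 17.0, 13.9 and 18.1 CPM in control and at 19.8, 19.7, 14.9 and 17.4 CPM in the Sox9-labelled libraries. The groups overlapped, with 3 of the 4 above the control mean. The fold was 1.10 with a 95% interval from 0.825 to 1.46 (adjusted p = 0.627, edgeR).

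Sesn2 was higher in the Sox9-labelled libraries. It lies at chr4:132492032-132510501 on the minus strand of GRCm38 and encodes sestrin 2, which lowers mTORC1 signalling and protects against oxidative stress, and which is a target of p53 and also of ATF4, the factor of the integrated stress response. It was at 1.91, 1.39 and 1.63 CPM in control, from 20, 16 and 16 counts. In the Sox9-labelled libraries it was at 4.94, 5.29, 9.28 and 4.61 CPM, from 36, 56, 83 and 22 counts. All 4 Sox9-labelled libraries were above all 3 control libraries, and replicate 3 stood above the other 3. The log2 fold change was 1.88 ± 0.38 SE, a fold of 3.68 with a 95% interval from 2.12 to 6.42 (adjusted p = 0.00276, edgeR).

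Sesn2 was called in 12 of 16 alternative settings, DESeq2 (adjusted p = 0.000211) and the deposited FPKM (adjusted p = 0.00653) among them, and in 5 of 7 with 1 library left out. Without Sox9 replicate 3 the log2 fold change was 1.61 (adjusted p = 0.0113), and without Control replicate 2 it was 1.78 (adjusted p = 0.0117). With cyclic loess scaling, which removes the trend of fold change with level, it was 1.13 (adjusted p = 0.0402). Gm12981, annotated as an antisense gene, shares 6089 bases with Sesn2 and held 2 counts over all libraries. Genes of its class, from 1 to 3 on the log2 CPM scale, had a median of 0.62.

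Phlda3, a p53 target that blocks the survival kinase Akt at the membrane, did not pass the filter. It had 4, 3 and 6 counts in control and 3, 12, 2 and 1 counts in the Sox9-labelled libraries, or 0.382, 0.261 and 0.610 CPM against 0.412, 1.13, 0.224 and 0.210 CPM. An exact two-sided permutation test of its CPM gave p = 0.943, where the smallest p that 3 against 4 libraries allow is 0.0286. Fitted without a filter, its fold had a 95% interval from 0.412 to 3.58, which is too wide to tell a fall from a rise.

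The members that kill cells fell into an abundant and a scarce kind. Bax, the pore-forming protein of the outer mitochondrial membrane, was at 233, 221 and 238 CPM in control and at 223, 224, 217 and 214 CPM in the Sox9-labelled libraries. The values lay close together in both groups, and the groups overlapped in CPM. In the deposited FPKM they did not, at 38.0 to 42.9 in control and 43.3 to 46.8 in the Sox9-labelled libraries. Bax shares 915 bases with Gm45808, which had no count of its own here. The fold was 0.952 with a 95% interval from 0.819 to 1.11 (adjusted p = 0.628, edgeR). The direction depended on the setting, at −0.07 on the log2 scale by edgeR, 0.067 with a minimum of 10 counts per library, 0.19 with cyclic loess and 0.16 with the deposited FPKM, a table in which the median gene moved by 0.14.

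Bbc3 and Pmaip1 encode PUMA and NOXA, small BH3-only proteins that neutralise the survival members of the BCL2 family. Bbc3 was at 1.82, 0.695 and 0.712 CPM in control and at 1.92, 1.04, 1.12 and 1.89 CPM in the Sox9-labelled libraries, from 7 to 19 counts a library. Control replicate 1 lay above 2 of the 4 Sox9-labelled libraries. The log2 fold change was 0.43 ± 0.52 SE, with a 95% interval in fold from 0.630 to 2.89 (adjusted p = 0.552, edgeR), and cyclic loess scaling turned it to −0.75. Its class, under 1 on the log2 CPM scale, had a median of 1.55.

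Pmaip1 was at 4.11, 0.695 and 2.34 CPM in control and at 2.75, 1.23, 1.57 and 2.52 CPM in the Sox9-labelled libraries, from 8 to 43 counts a library. All 4 values lay inside the wide control range. The log2 fold change was −0.27 ± 0.53 SE, with a 95% interval in fold from 0.376 to 1.83 (adjusted p = 0.734, edgeR), and it was above 0 in 3 of 15 alternative settings. Its class, from 1 to 3, had a median of 0.62.

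**Figure D2:**
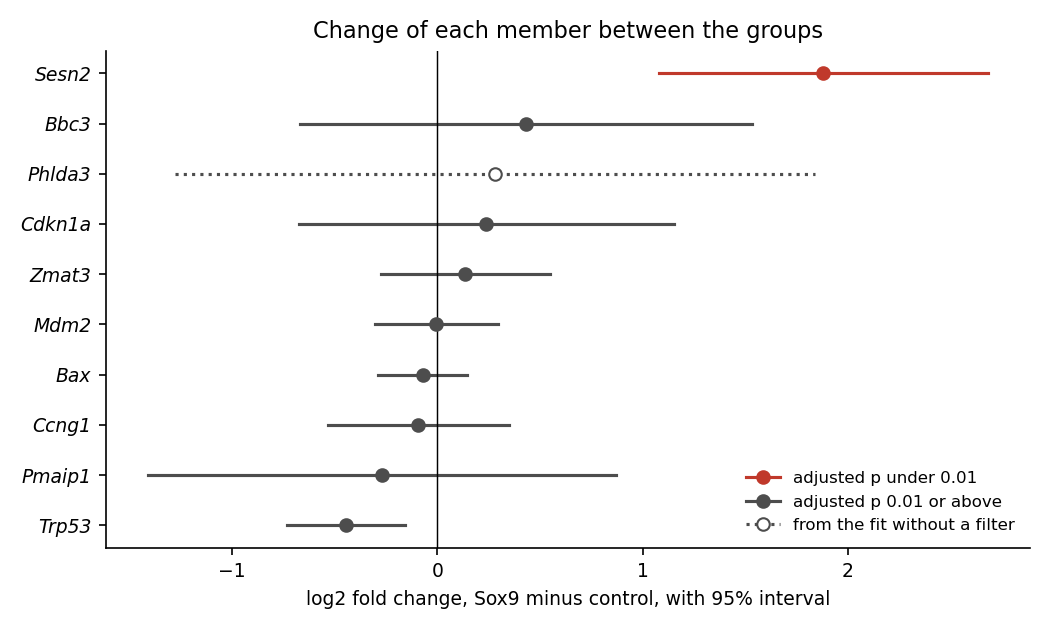
Log2 fold change of each of the 10 genes, Sox9-labelled libraries minus control, with 95% intervals; red marks an adjusted p under 0.01, and the dotted line is Phlda3 from the fit without a filter. Only the intervals of Sesn2 (above 0) and Trp53 (below 0) leave out 0.

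The members could be ordered by level per kilobase of exon, the scale on which genes of different length compare. In control the mean was 146 ± 5.21 CPM per kilobase for Bax (SD, n = 3), 101 ± 7.21 for Trp53 and 12.3 ± 0.757 for Mdm2, the 3 abundant members. It was 4.35 ± 0.842 for Ccng1, 1.43 ± 0.191 for Zmat3, 0.966 ± 0.528 for Cdkn1a and 0.872 ± 0.625 for Pmaip1. Bbc3 (0.506 ± 0.302), Sesn2 (0.473 ± 0.0751) and Phlda3 (0.268 ± 0.114) were lowest. The control values of Zmat3 overlapped those of Cdkn1a, those of Cdkn1a overlapped those of Pmaip1, and so on down to Sesn2, while the other neighbours in the order were apart. In the Sox9-labelled libraries the mean of Sesn2 was 1.74 ± 0.628 per kilobase (SD, n = 4), beside 1.12 ± 0.416 for Cdkn1a. The gap between the abundant and the scarce killers was wide in both groups, since Bax exceeded Bbc3 by at least 153-fold and Pmaip1 by at least 98.1-fold in every library.

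**Figure D3:**
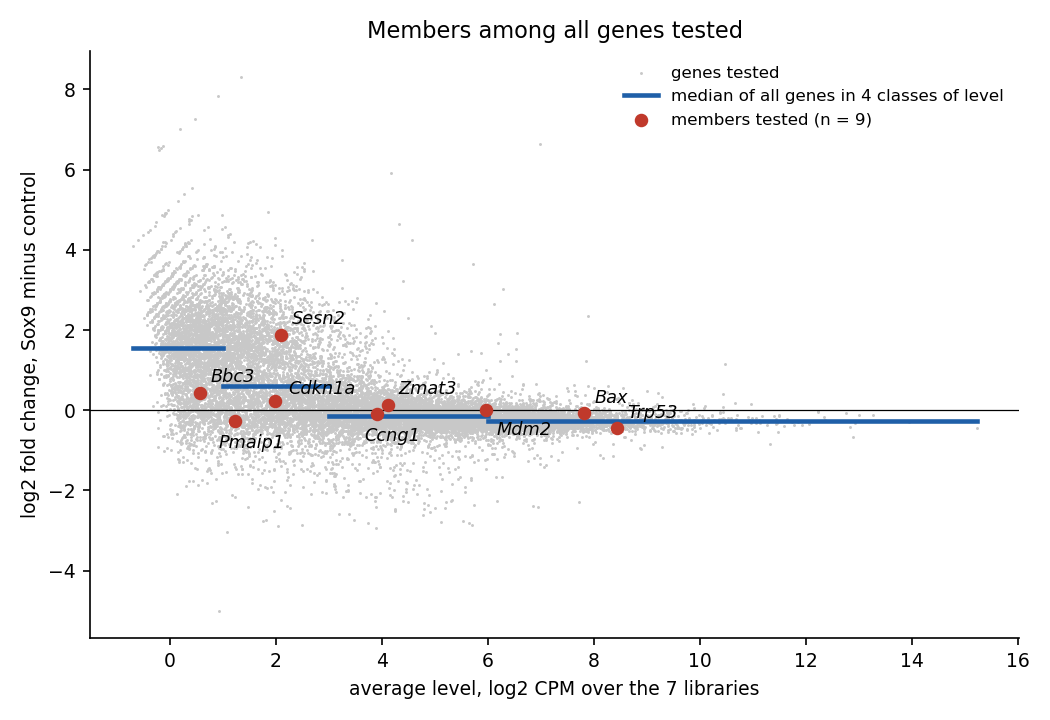
Log2 fold change against average level for all 16522 genes tested (grey), with the 9 members tested in red and the median of all genes in 4 classes of level as blue lines. Sesn2 lies above the median of its class (1.88 against 0.62) and Trp53 below (−0.45 against −0.26), while Bbc3 lies below its class median (0.43 against 1.55).

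Among the regulators of p53 the call was Trp63. Of 28 kinases, ligases and relatives listed, 26 were tested, 1 was called higher and none lower by edgeR, against 11.3% and 3.43% of all genes, and 1 and 3 had an unadjusted p under 0.05 upwards and downwards, against 26.8% and 17.3%. DESeq2 called 1 higher and 1 lower, and cyclic loess and the deposited FPKM 0 in either direction. Their median log2 fold change was −0.15. Trp63, the p53 relative known for epithelial stem cells and for the death of damaged oocytes, was at 1.30 to 2.10 CPM in control and 3.87 to 9.20 CPM in the Sox9-labelled libraries, a fold of 3.70 (95% interval from 2.10 to 6.55, adjusted p = 0.0031). Without Sox9 replicate 3, or without Control replicate 2, its adjusted p was 0.0108 and 0.0132. With cyclic loess its log2 fold change was 1.23 (adjusted p = 0.0268), and on log2(FPKM + 0.1), which understates the change of low genes, it was 0.31 (adjusted p = 0.0242). Chek1, the kinase of the replication checkpoint, had a log2 fold change of −0.90 ± 0.28 SE (adjusted p = 0.0247, and 0.00737 with DESeq2), and Ppm1d, the phosphatase that switches the response off, had −0.63 ± 0.25 SE (adjusted p = 0.0664).

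The other p53 targets did not follow a common direction. The 3 lists held 57 further targets that were tested, of which 3 were called higher (Tgfa, Gls2 and Ninj1) and 9 lower, against 11.3% and 3.43% of all genes. The median log2 fold change was −0.04. DESeq2 called 4 higher and 12 lower of 66, cyclic loess 2 and 3 of the 57, and the deposited FPKM 4 and 0. Among the 19 of arrest and stress 1 was higher and 5 lower (Sesn1, Btg2, Psrc1, Ckap2 and Gtse1), and the last 3 of these act on the mitotic spindle. Among the 14 of cell death 1 was higher and 2 lower, and among the 24 of repair and metabolism 1 was higher and 2 lower.

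The 2 sestrins moved apart. Sesn1, the relative of Sesn2 that p53 also controls, fell from 92.3, 106 and 94.7 CPM in control to 37.6, 52.2, 45.7 and 47.2 CPM in the Sox9-labelled libraries. All 4 lay below all 3, and the log2 fold change was −1.10 ± 0.14 SE (adjusted p = 0.000162, edgeR), a fall that was called in 15 of 16 alternative settings and missed with the deposited FPKM (adjusted p = 0.0104). Per kilobase of exon Sesn1 stayed the more abundant of the pair, at 9.45 to 13.1 against 1.33 to 2.67 for Sesn2 in the Sox9-labelled libraries.

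Btg2 is both a p53 target and the locus that carries CreERT2. It was at 91.2, 90.9 and 103 CPM in control and at 68.5, 45.9, 50.9 and 52.4 CPM in the Sox9-labelled libraries, without overlap. The log2 fold change was −0.81 ± 0.14 SE (adjusted p = 0.00153, edgeR). It was −0.59 with cyclic loess (adjusted p = 0.0258) and −0.59 with the deposited FPKM (adjusted p = 0.0341), where the call was lost. Embryos of both groups have 1 altered allele, and the counts do not tell the alleles apart.

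Tgfa, a ligand of the EGF receptor, changed most among the targets. It was at 3.44, 6.26 and 1.22 CPM in control and at 50.4, 37.6, 13.4 and 36.7 CPM in the Sox9-labelled libraries, a fold of 9.29 (95% interval from 4.67 to 18.5, adjusted p = 0.000397, edgeR). Its log2 fold change was 3.87 without Control replicate 2. Gls2, the glutaminase of mitochondria, rose from 0.434 to 0.765 CPM in control to 3.57 to 5.81 CPM, a fold of 7.37 (95% interval from 3.90 to 13.9, adjusted p = 0.000496). Gls2 was under the filter's minimum of 0.956 CPM in all 3 control libraries, so it was tested only through the group in which it was high. On the log2 scale Tgfa had 3.22, and 1.91 with the deposited FPKM, and Gls2 had 2.88, and 1.59 with cyclic loess, all called. Ninj1, which ruptures the membrane of dying cells, rose from 2.96 to 5.49 CPM to 7.60 to 16.9 CPM, a fold of 3.08 (95% interval from 1.92 to 4.95, adjusted p = 0.00263, and 0.0122 with cyclic loess).

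The 4 targets Abhd4, Siva1, Lpin1 and Trp53i11 fell. Abhd4, a lipase with a role in the death of displaced progenitors, was at 38.6 to 55.5 CPM in control and 14.9 to 28.3 CPM in the Sox9-labelled libraries (log2 fold change −1.18 ± 0.22 SE, adjusted p = 0.00182). Siva1 was at 17.1 to 29.7 CPM and 7.76 to 13.3 CPM (−1.18 ± 0.23 SE, adjusted p = 0.00257), and its adjusted p was 0.0111 without Control replicate 2 and 0.014 without Control replicate 4. Lpin1, a phosphatidate phosphatase, had a log2 fold change of −0.60 ± 0.13 SE (adjusted p = 0.00419) and Trp53i11 had −0.53 ± 0.13 SE (adjusted p = 0.00948), and with 1 library left out the call of Lpin1 held only without Control replicate 1 or Sox9 replicate 2 and that of Trp53i11 never. None of the 4 was called with cyclic loess or with the deposited FPKM.

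The machinery of cell death was followed in 4 lists. They held 42 tested genes, of which 1 was called higher (Mlkl) and none lower by edgeR, against 11.3% and 3.43% of all genes. DESeq2 called 2 higher and 3 lower of 55, cyclic loess 0 in either direction and the deposited FPKM 2 and 0. The groups did not overlap for 7 with the Sox9-labelled libraries above and 10 with them below, against 22.9% and 16.4% of all genes. At an unadjusted p under 0.05 there were 9 in each direction, against 26.8% of all genes upwards and 17.3% downwards. The median log2 fold change of the 42 was −0.11.

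Among the 4 anti-apoptotic BCL2 genes tested edgeR, DESeq2 and limma-trend called none. At an unadjusted p under 0.05 there were 1 upwards and 0 downwards, against 26.8% and 17.3% of all genes. Bcl2 was at 17.2, 11.2 and 10.3 CPM in control and at 28.4, 16.9, 15.9 and 18.5 CPM in the Sox9-labelled libraries (log2 fold change 0.62 ± 0.25 SE, adjusted p = 0.0693). Mcl1 had −0.32 ± 0.17 SE (adjusted p = 0.144). Bcl2l1, which encodes BCL-XL, the survival protein of young neurons, was the most abundant of them at 124 CPM per kilobase in control and had −0.13 ± 0.11 SE (adjusted p = 0.379), with 3 of 16 alternative settings above 0. The ratio of Bax to Bcl2l1 per kilobase was 1.13 to 1.24 in control and 1.15 to 1.34 in the Sox9-labelled libraries. The ratio of Bax to Mcl1 was 7.68 to 9.83 and 9.07 to 13.49, and that of Bax to Bcl2 was 78.5 to 134 and 45.5 to 79.4. The groups overlapped in all 3 ratios.

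Among the 8 other pro-apoptotic BCL2 genes tested edgeR, DESeq2 and limma-trend called none. At an unadjusted p under 0.05 there were 1 upwards and 2 downwards, against 26.8% and 17.3% of all genes. Bnip3l, a receptor for the removal of mitochondria, had a log2 fold change of −0.38 ± 0.14 SE (adjusted p = 0.0509, and 0.00732 without a filter) and its relative Bnip3 had −0.33 ± 0.14 SE (adjusted p = 0.0892). Hrk, a BH3-only protein of neurons, was at 1.15, 1.22 and 0.305 CPM in control and at 1.92, 1.23, 2.12 and 3.77 CPM in the Sox9-labelled libraries (1.27 ± 0.55 SE, adjusted p = 0.0893).

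Among the 19 caspases, apoptosome parts and inhibitors tested edgeR called none, with 3 upwards and 7 downwards at an unadjusted p under 0.05 (26.8% and 17.3% of all genes). DESeq2 called 1 higher (Apaf1) and 3 lower of 23 in this list, Aifm1 among them, cyclic loess called none, and the deposited FPKM gave 1 higher (Naip1). Without a filter edgeR called 1 higher (Casp12) and 4 lower of the 23, Casp8 among the latter. Apaf1, the scaffold of the apoptosome and a p53 target, came nearest. It was at 11.7, 8.17 and 12.1 CPM in control and at 20.3, 16.7, 16.7 and 23.1 CPM in the Sox9-labelled libraries, without overlap (log2 fold change 0.84 ± 0.22 SE, adjusted p = 0.0105). Its adjusted p was 0.00645 with DESeq2, 0.00818 with a minimum of 10 counts per library and 0.00968 over protein-coding genes. Apaf1 was called in these 3 of 16 alternative settings only, and with 1 library left out its adjusted p ran from 0.0133 to 0.0518. Aifm1, a mitochondrial protein that moves to the nucleus in dying cells, had −0.49 ± 0.13 SE (adjusted p = 0.012, and 0.00287 with DESeq2). Naip1 had 1.83 ± 0.50 SE (adjusted p = 0.0135) from 3 to 8 counts a control library, and it belongs to a family of near-identical copies between which reads may have been split.

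Among the 11 death receptors and adaptors tested Mlkl was called. It encodes the executor of necroptosis and was at 0, 0.521 and 0.509 CPM in control, from 0, 6 and 5 counts, and at 3.57, 2.55, 2.01 and 2.94 CPM in the Sox9-labelled libraries (log2 fold change 2.95 ± 0.64 SE, adjusted p = 0.00431). Like Gls2 it passed the filter only through the Sox9-labelled libraries, and of the 2169 genes with no control library at the minimum 43.2% were called higher and none lower. With cyclic loess it was 1.30 and not called (adjusted p = 0.0883), and with the deposited FPKM 0.92. It lies in the lowest class of level, where 20.6% of genes were called higher. Tnfsf10, the ligand TRAIL, had 1.62 ± 0.50 SE (adjusted p = 0.0244), and Cflar, which holds caspase 8 in check, had 0.69 ± 0.26 SE (adjusted p = 0.0546).

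Genes of the DNA damage response were called in both directions. Of 26 tested, 1 was called higher and 2 lower, against 11.3% and 3.43% of all genes. DESeq2 called 1 and 5, cyclic loess 0 and 1, and the deposited FPKM 1 and 0. The median log2 fold change was −0.17. Xrcc6, which encodes Ku70 of end joining, was at 78.9 to 96.1 CPM in control and 47.0 to 56.1 CPM in the Sox9-labelled libraries (−0.82 ± 0.13 SE, adjusted p = 0.00068, and 0.0105 with cyclic loess). Brca2, a gene of homologous recombination, had a log2 fold change of 0.98 ± 0.23 SE (adjusted p = 0.00636). With 1 library left out, the call of Brca2 held only without Sox9 replicate 4, and with cyclic loess its adjusted p was 0.0165.

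Genes that fall when p53 and p21 are active, the mitotic genes repressed through the DREAM complex, were the list with most calls. Of 24 tested, 19 were called lower and 1 higher (Mybl2, itself a driver of the mitotic programme), against 3.43% of all genes called lower, and 18 were called lower with cyclic loess and 12 with the deposited FPKM. The median log2 fold change was −1.76. Top2a, the topoisomerase of mitotic chromosomes, was at 154, 296 and 196 CPM in control and at 38.6, 43.5, 36.8 and 45.5 CPM in the Sox9-labelled libraries. Its log2 fold change was −2.39 ± 0.18 SE (adjusted p = 7.64e-06, edgeR). Prc1, which bundles microtubules in the spindle midzone, had −2.27 ± 0.21 SE (adjusted p = 3.71e-05) and Plk1, the mitotic kinase, had −2.93 ± 0.29 SE (adjusted p = 3.99e-05).

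The markers of cycling cell types moved with these genes. The summed CPM of 8 radial glia markers was 551 to 1071 in control and 263 to 403 in the Sox9-labelled libraries, and that of 6 BP markers was 401 to 614 and 149 to 179. Both were lower without overlap (exact two-sided permutation test, p = 0.0286 for each, the smallest the design allows), and 4 of 8 and 2 of 6 markers were called lower, against 3.43% of all genes. The called BP markers were Rrm2, a gene of DNA synthesis, and Eomes, while the median log2 fold change of the 6 was −0.43 and the highest was 1.15 (not called). Neuron markers, 8 in number, were at 13525 to 16871 and 12427 to 14485, with overlap (exact permutation p = 0.2) and none called. At an unadjusted p under 0.05 (edgeR) 4 of the 8 were lower and 0 higher, against 17.3% and 26.8% of all genes. In bulk libraries fewer cells of a type cannot be told apart from less RNA per cell. The part of these cell types in the fall of the mitotic genes was not tested.

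**Figure D4:**
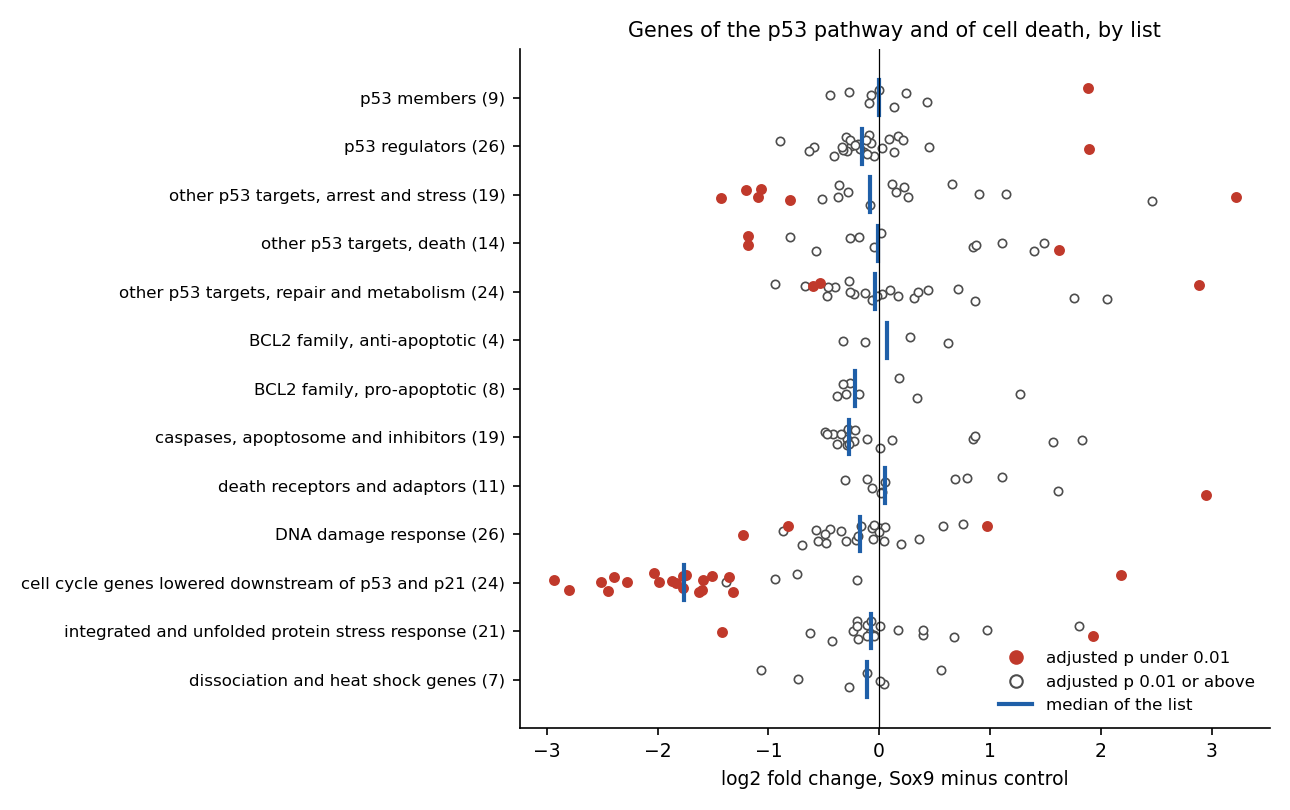
Log2 fold change of each tested gene, Sox9-labelled libraries minus control, in the 10 members and 12 lists (number tested in brackets); filled red points have an adjusted p under 0.01, and blue lines are list medians. The mitotic genes lie apart with a median of −1.76, while the medians of the other lists run from −0.27 to 0.07.

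Markers of other cells that the sort could hold were measured beside the members. The 5 oligodendrocyte precursor markers summed to 0.610 to 1.39 CPM in control and 9.50 to 22.8 CPM in the Sox9-labelled libraries (exact permutation p = 0.0286), and the 4 that were tested were called higher. All 4 had passed the filter only through the Sox9-labelled libraries, so their calls do not count as support for the direction. The 6 endothelial markers were at 3.15 to 11.1 and 13.6 to 36.8 CPM (exact permutation p = 0.0571), with 2 of 5 tested called higher, against 11.3% of all genes and 20.6% and 22.8% of those in the 2 lowest classes of level. The 8 microglia markers were at 10.4 to 38.4 and 13.8 to 66.8 CPM (exact permutation p = 0.629), with 1 of 8 called, which also passed only through that group, and the 7 erythroid markers were at 2.10 to 24.7 and 14.6 to 94.8 CPM (exact permutation p = 0.2), with 1 of 6 called. A sort on RFP would remove cells that were not electroporated. No marker of these 4 lists was at 0 in every library. The part of these cells in the values of low genes such as Sesn2, Trp63 and Mlkl was not tested.

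Stress genes outside the p53 pathway gave a mixed account. In the integrated and unfolded protein response, to which Sesn2 also belongs as background, 21 were tested, 1 was called higher and 1 lower, against 11.3% and 3.43% of all genes, and the median log2 fold change was −0.08. Nupr1, a stress-induced chromatin protein downstream of ATF4, was at 0.434 to 1.62 CPM in control and 2.74 to 4.40 CPM in the Sox9-labelled libraries (1.93 ± 0.48 SE, adjusted p = 0.00829), a call that with 1 library left out held only without Control replicate 1 or Sox9 replicate 2 (log2 fold change 2.53 without Control replicate 1). With cyclic loess it was 0.93 and not called (adjusted p = 0.142), and 1 of 3 control libraries reached the minimum of the filter. Phgdh, the first enzyme of serine synthesis and an ATF4 target that is also abundant in radial glia, was at 32.7 to 62.5 and 18.1 to 20.5 CPM (−1.42 ± 0.20 SE, adjusted p = 0.000376). Mthfd2, another ATF4 target, had −0.62 ± 0.16 SE (adjusted p = 0.011, and 0.00208 with DESeq2). The immediate-early and heat shock genes that tissue dissociation raises gave no call among 7 tested by edgeR, nor by DESeq2 or limma-trend, with 0 upwards and 2 downwards at an unadjusted p under 0.05 (26.8% and 17.3% of all genes). Fos had −0.73 ± 0.28 SE (adjusted p = 0.0545), Egr1 had −1.06 ± 0.43 SE (adjusted p = 0.0696), both called lower without a filter, and Fosb had 0.56 ± 0.54 SE (adjusted p = 0.450), which turned below 0 with cyclic loess scaling.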

How the data were processed

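The authors deposited raw read counts per Ensembl gene and a table of FPKM values made from the same 7 libraries (poly-dT priming, PCR amplification without molecular identifiers, 75-base single-end reads). Per the labels and the study's methods, reads were demultiplexed with bcl2fastq 2.17.1.14, trimmed with cutadapt and aligned with STAR 2.5.2b to mm10 with Ensembl release 70. The counting program and its strand setting are not given in the sources used here, so reads of overlapping antisense genes cannot be told apart. The length implied by the deposited FPKM of the members was 0.874 to 1.00 times the whole gene span rather than the exon length, so levels per kilobase here use the counts and the exons of GENCODE M21 (GRCm38).

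Counts were scaled by TMM and tested with edgeR 4.0.16 (glmQLFit and glmQLFTest, two-sided, filterByExpr, R 4.3.3), control against Sox9, without covariates. The 95% intervals use the t distribution with the moderated degrees of freedom of each gene. The test was tested on simulated data. Alternatives were DESeq2 1.42.0, its size factors in edgeR, cyclic loess with limma-trend (limma 3.58.1), no filter, a minimum of 10 counts per library, protein-coding genes only, an adjusted p under 0.05, replicate number as a block, each library left out and, chosen after seeing the data, limma-trend on log2(FPKM + 0.1). Values set on the summed CPM of marker lists were compared by exact permutation over libraries (scipy 1.17.1). Group and replicate come from the sample titles. Depth limits genes of few counts, and intervals cover the spread between libraries.

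The members and lists were chosen with earlier results of these data known. Genes named are the 10 members, Sox9, Btg2 and, from each of the 12 pathway lists, the 3 tested genes with the smallest p, together with Mdm4, Psrc1, Ckap2, Gtse1, Mybl2, Rrm2, Eomes, Casp8 and Casp12, which were chosen after their values were seen. A gene of the DNA damage list that the rule names is not reported here. Marker lists, 7 in number, are given by ranges and counts.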

Additional observations from a re-analysis of the deposited data

Results flagged for a closer look

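Outlier checks by Dixon's ratio were made on the CPM of 47 named genes within the 4 libraries labelled Sox9, and 2 genes passed the 95% critical value, where chance gives about 1 in 20. Sesn2 was at 9.28 CPM in replicate 3, against 4.61 to 5.29 CPM in the other 3, with a gap of 0.855 of the whole range. Tnfsf10, the ligand TRAIL, was at 4.47 CPM in replicate 3, against 2.10 to 2.33 CPM in the other 3, with a gap of 0.900 of the range. Both high values were in the same library.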

How the results depend on the processing

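Of the members tested, 1 was called higher (Sesn2) and 0 lower. The higher count was 0 with cyclic loess scaling and 0 with the replicate block by titles, and 0 to 1 with 1 library left out (0 without Control replicate 2 or Sox9 replicate 3). The lower count was 1 (Trp53) with DESeq2, without a filter and at an adjusted p under 0.05, and 0 whichever library was left out. Of the 199 pathway genes tested, 8 were called higher and 31 lower. The higher count was 3 with cyclic loess scaling, 5 with the replicate block by titles or by descriptions, 19 at an adjusted p under 0.05 and 5 to 8 with 1 library left out, lowest without Control replicate 2. The lower count was 16 with the block by titles, 12 with the deposited FPKM and 22 to 31 with 1 library left out. The cause of these shifts was not tested.

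The replicate numbers did not pair the libraries. Control libraries carry the numbers 1, 2 and 4 in their titles and 1, 2 and 3 in their descriptions, and the correlation of same-numbered deviations from the group means was −0.036, 0.12 and −0.0048 by titles and −0.036, 0.12 and 0.017 by descriptions. The replicate block took the calls over all genes from 1862 higher and 567 lower to 400 and 218 by titles and to 1034 and 353 by descriptions. Sesn2 had a log2 fold change of 1.60 with the block by titles (adjusted p = 0.0214) and 1.93 by descriptions. The block by titles lost the call of 11 named genes and that by descriptions of 8. Over the 46 named genes that were tested, 641 of 772 values under the alternatives kept their direction and their side of the threshold, 79 lost the call, 28 gained it and 24 changed sign without a call on either side. Those 24 belong to 8 genes. With cyclic loess Mdm2 was at 0.21, Cdkn1a at −0.30, Bax at 0.19, Bbc3 at −0.75, Bcl2l1 at 0.14 and Fosb at −0.57 on the log2 scale. With a minimum of 10 counts per library Mdm2 was at 0.13, Bax at 0.067, Ccng1 at 0.047 and Bcl2l1 at 0.0079, and over protein-coding genes Mdm2 was at 0.034. With the block by titles Mdm2 was at 0.027 and Pmaip1 at 0.043. With the deposited FPKM, where the median gene was at 0.14, Mdm2 was at 0.21, Bax at 0.16, Pmaip1 at 0.11, Ccng1 at 0.14 and Bcl2l1 at 0.095. With 1 library left out Mdm2 ran from −0.062 to 0.094, Cdkn1a from −0.10 to 0.74, Pmaip1 from −0.71 to 0.37 and Ccng1 from −0.22 to 0.038, and the microglia marker sum differed between the groups by −1.98 (without Sox9 replicate 1) to 15.9 CPM. Members with few counts (Cdkn1a, Bbc3, Pmaip1, Phlda3) have wide intervals at this depth.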
